A study of Mus musculus with 40 samples.

Results

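Nuclear genes for subunits of the oxidative phosphorylation chain were followed in ribosome-bound RNA from Drd1-expressing neurons of the nucleus accumbens after cocaine self-administration. Members were chosen by symbol alone: every listed gene named as an NADH dehydrogenase subunit (Nduf), succinate dehydrogenase subunit (Sdh), cytochrome bc1 subunit (Uqcr and Cyc1), cytochrome c oxidase subunit (Cox4 to Cox8) or ATP synthase subunit (Atp5), with pseudogene symbols left out. This gave 86 of 32531 gene symbols, of which 38 belong by name to complex I, 4 to complex II, 9 to complex III, 18 to complex IV and 17 to complex V. The labels describe adult Drd1-TRAP CP73 mice (Drd1-EGFP/Rpl10a), backcrossed to C57BL/6 for at least 9 generations from FVB/N-Swiss Webster, that self-administered cocaine or saline intravenously in a long-access study. All 6 groups carry the same transgene, in which Drd1 regulatory sequence drives a tagged ribosomal protein, so that antibody against the tag pulls down polysomes (translating ribosome affinity purification, TRAP) from cells in which the transgene is active. At approx. 1 month after self-administration there were 4 libraries of the escalating cocaine group (5.75 to 6.96 M counts), 10 of the nonescalating cocaine group (4.97 to 15.2 M counts) and 5 of the saline group (10.5 to 33.9 M counts). At 24 hours there were 5 escalating (8.23 to 11.1 M counts), 9 nonescalating (9.11 to 15.1 M counts) and 6 saline libraries (3.77 to 12.9 M counts). Libraries are called by the number in their labels, and a further nonescalating library of 1 month, 1595, held 5168 counts and was left out. Depths are summed gene counts, with M for 1000000, and levels are in CPM, counts per 1000000 after TMM scaling, an adjustment for library composition. Here n counts libraries, since the labels do not say whether libraries come from separate animals, and p-values measure the spread between libraries only.

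The chain sits in the inner mitochondrial membrane. Complexes I and II pass electrons from NADH and succinate to ubiquinone, complex III passes them to cytochrome c, and complex IV passes them to oxygen. Complexes I, III and IV pump protons, and complex V, the ATP synthase, uses the proton gradient to make ATP. Most subunits are encoded in the nucleus, translated on cytosolic ribosomes and imported, so TRAP can recover their mRNAs. Neurons take most of their ATP from this chain, and striatal projection neurons use much of it to restore ion gradients after firing. Several complex IV subunits have paired genes: a broadly expressed one and one restricted to muscle, testis or lung.

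The label of the tissue and line was checked with markers. Summed D1 neuron markers (7 genes) lay between 1359 and 2508 CPM in 38 libraries but at 323 CPM in the 24-hour saline library 1573, while D2 neuron markers (6 genes) lay between 413 and 1094 CPM in the 39 libraries. Library 1573 held 833 CPM of mural cell markers and 1610 CPM of oligodendrocyte markers, against medians of 114 and 173 CPM over the 39 libraries, and 70.3% of its uniquely placed reads hit no annotated gene. Its endothelial markers summed to 1851 CPM, against a median of 264. Library 1574 held 1137 CPM of mural, 2284 of endothelial and 1219 of oligodendrocyte markers, with 51.1% of such reads in no gene. For 1582 the sums were 269, 548 and 524 CPM, with 40.4% of reads in no gene. Such sums also occurred elsewhere. Escalating library 1589 (24 hours) held 630 CPM of mural, 2174 of endothelial and 181 of oligodendrocyte markers, with 40.2% of reads in no gene. Mural and endothelial sums above those of 1582 were also found in 1586, 1588, 1604 and 1609. These libraries were kept in the fits without 1573, 1574 and 1582. In tissue pulldowns, fewer cells of a type and less RNA per cell cannot be told apart. Across the 81 members with enough counts to be tested over the 39 libraries, 1573 stood a median of 1.20 log2 units below the usual level of the members, and 51 of the 81 lay over 1 log2 unit from it. Libraries 1574 (saline, 24 hours) and 1582 (nonescalating, 24 hours) stood a median of 0.65 and 0.31 below, with SDs among the 81 deviations of 1.82 and 1.58, against 1.35 in 1573 and 0.22 to 0.87 in the other 36 libraries. These 3 libraries held the lowest value of 64 of the 81 members and the highest value of 17. Ndufb6, an accessory subunit of complex I, shows the scatter: it had 0 CPM in 1574 and 105 CPM in 1582, with 5.88 to 50.8 CPM in the others. Values without these 3 libraries stand beside the members' counts at 24 hours and the genes that led them. Since the 3 stand out in part by the members' own values, fits without them are not an independent check on the members.

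**Figure D1:**
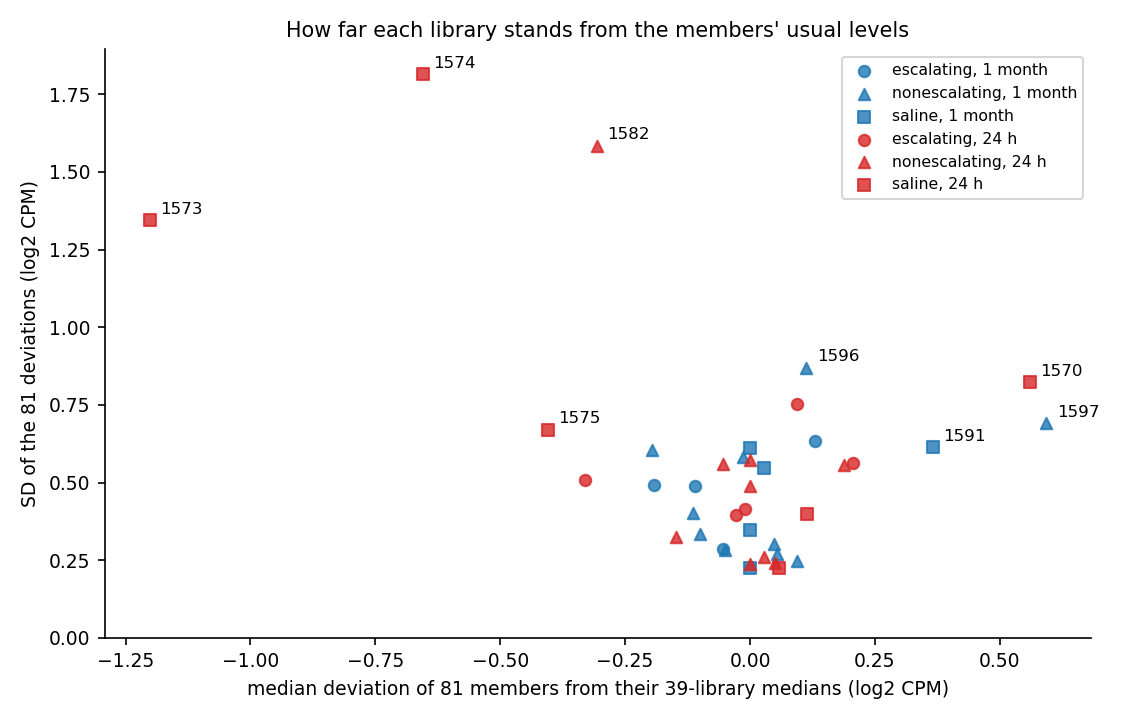
Each point is 1 of 39 libraries. The x axis is the median, and the y axis the SD, of the deviations of 81 tested members from their own 39-library medians (log2 CPM). Libraries 1573, 1574 and 1582 have SDs of 1.35, 1.82 and 1.58, while the other 36 lie between 0.22 and 0.87.

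The members were among the more abundant ribosome-bound mRNAs. Per kilobase of transcript, the median of the 79 tested members with a length was 47.0 CPM, against 5.46 CPM for all tested genes, and 75 of the 79 lay above that. The median levels per kilobase were 41.3 CPM for complex I (38 genes), 46.8 for complex II (4), 55.6 for complex III (9), 88.1 for complex IV (13) and 76.4 for complex V (15). The catalytic head of the ATP synthase stood at the top. Atp5b (chr10:128083273-128090391, mm10), which encodes the catalytic beta subunit, had a median of 1082 CPM per kilobase, and Atp5a1, the alpha subunit, had 293. The gamma subunit gene of the central stalk, Atp5c1, was at 135. Beta and alpha occur in equal numbers in the enzyme, while the beta mRNA was the more abundant per kilobase. The membrane ring of identical c subunits is encoded by the genes Atp5g1, Atp5g2 and Atp5g3, whose mature proteins are the same. Atp5g3 held 127 CPM per kilobase, Atp5g1 23.8 and Atp5g2 12.5, so Atp5g3 was the highest per kilobase. These levels depend on the transcript lengths used, 718 bases for Atp5g3, 2676 for Atp5g1 and 586 for Atp5g2. Not divided by length, Atp5g3 and Atp5g1 lay closer, with means of 6.57 and 5.94 log2 CPM in nonescalating libraries of 1 month.

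In complex I, Ndufa4 was highest (176 CPM per kilobase); its name places it there, although its protein is now known as a subunit of complex IV. The core subunits Ndufs1, an iron-sulfur protein, and Ndufv1, which binds FMN and oxidizes NADH, were at 36.2 and 50.2. Ndufab1, the mitochondrial acyl carrier protein that also sits in the complex, was among the lowest at 10.7, with a transcript length of 2448 bases. In complex II the soluble flavoprotein Sdha was at 159, the iron-sulfur subunit Sdhb at 50.9, and the membrane anchors Sdhd and Sdhc at 42.8 and 22.4. The flavoprotein mRNA was thus the most abundant of the complex and an anchor mRNA the least. In complex III the small subunit Uqcr10 was highest at 125 and the Rieske protein gene Uqcrfs1 lowest at 27.4. Cyc1, cytochrome c1, held 31.9, and Uqcrc1, a core protein, 55.6. In complex IV Cox8a led at 296, followed by Cox6a1 at 207 and Cox4i1 at 170.3, while Cox5a held 85.1 and Cox7a2 88.1.

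**Figure D2:**
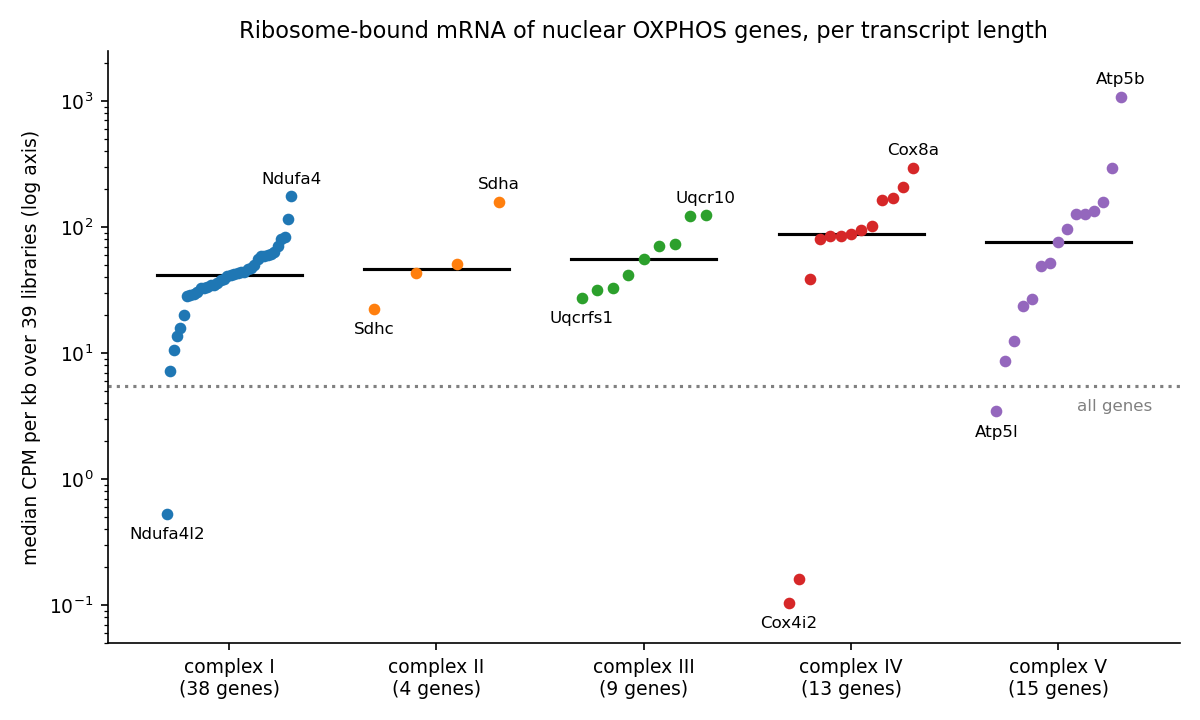
Each point is a tested member, the y axis (log scale) is its median CPM per kilobase of transcript over 39 libraries, and black bars are medians of complexes. Complex medians run from 41.3 to 88.1, above the 5.46 of all tested genes (dotted line), and Atp5b stands at 1082.

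Counting limits some of these levels. For 12 of the 85 members with a reference transcript, another annotated gene, a pseudogene or noncoding copy in each case, matched at least 50% of the transcript at 95% identity or more, and 6 of the 12 belong to complex V. Atp5l, the g subunit and the lowest tested gene of complex V (3.45 CPM per kilobase), matched 9 such genes. Atp5g2 matched a pseudogene along 100% of its transcript at 100% identity. Whether reads of these genes were lost to their copies was not tested. The models of 37 of 84 members overlap another gene, and no strand setting is given, so reads of such partners may not be separable.

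Genes restricted to other tissues were close to absent. Cox4i2, the lung and hypoxia form of subunit 4, had a median of 0.104 CPM per kilobase, against 170.3 for the broadly expressed Cox4i1. Cox6a2, the heart and muscle form of subunit 6a, had 0.161, against 207 for Cox6a1. Ndufa4l2, a hypoxia-induced relative of Ndufa4, had 0.530. Cox6b2, Cox7a1, Cox7b2, Cox8b and Cox8c were too low for any test. The muscle genes Cox7a1 and Cox8b had 0 counts in 25 and 38 of 39 libraries, and the testis genes Cox6b2, Cox7b2 and Cox8c in 34, 26 and 39. Cox8b summed to 1 count over the 39 libraries and Cox8c to 0, against 71355 for Cox8a.

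The restricted genes that could be tested peaked in different libraries. Cox4i2 was highest at 7.19 CPM in saline library 1570 (24 hours), Cox6a2 at 10.1 CPM in saline library 1573 (24 hours), and Ndufa4l2 at 7.76 CPM in escalating library 1608 (1 month). Library 1573 also held the most striatal interneuron markers of any library (343 CPM summed over 7 genes, against a median of 51.4); the part of other cells in its Cox6a2 was not tested. Mural cell markers, whose cells are a known site of Cox4i2 and Ndufa4l2, summed to 145 CPM in 1570 and to 89.8 CPM in 1608, against the 39-library median of 114.

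**Figure D3:**
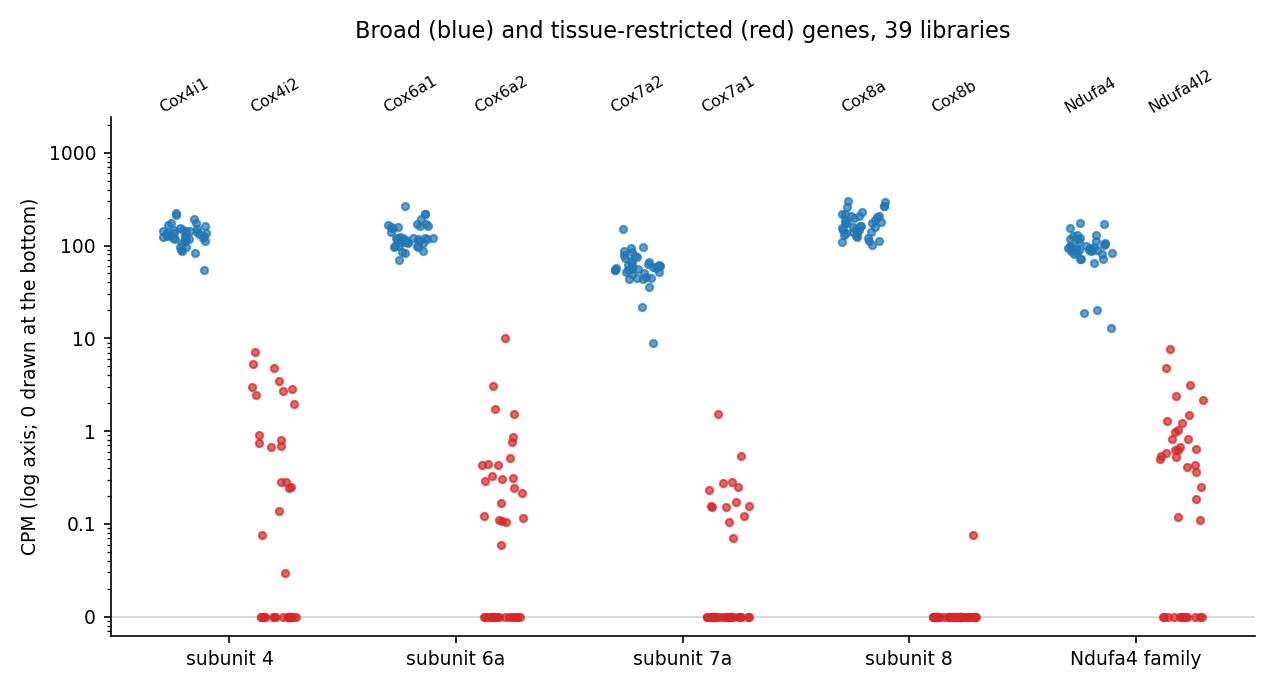
Each point is 1 of 39 libraries, and the y axis is CPM on a log scale with 0 drawn at the bottom. Blue genes are the broadly expressed forms and red genes their tissue-restricted relatives; Cox8b has a count in 1 library, and Cox7a1 in 14.

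The promoters of 2 such pairs are shown, in which the restricted genes, Cox8b and Cox7a1, were too low for any test and their partners were abundant. The 250 bases before the annotated start are printed 5′ to 3′ on the gene's strand (GRCm38.p6, RefSeq), with CpG dinucleotides in capitals. Cox8a lies at chr19:7217617-7217866 (minus strand), Cox8b at chr7:140900447-140900696 (minus), Cox7a2 at chr9:79759854-79760103 (minus) and Cox7a1 at chr7:30183921-30184170 (plus).
Cox8a: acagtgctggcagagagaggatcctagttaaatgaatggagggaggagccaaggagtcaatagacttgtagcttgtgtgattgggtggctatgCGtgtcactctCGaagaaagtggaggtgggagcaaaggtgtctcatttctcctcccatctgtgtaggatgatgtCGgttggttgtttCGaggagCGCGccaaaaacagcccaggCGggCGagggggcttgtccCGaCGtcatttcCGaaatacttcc
Cox8b: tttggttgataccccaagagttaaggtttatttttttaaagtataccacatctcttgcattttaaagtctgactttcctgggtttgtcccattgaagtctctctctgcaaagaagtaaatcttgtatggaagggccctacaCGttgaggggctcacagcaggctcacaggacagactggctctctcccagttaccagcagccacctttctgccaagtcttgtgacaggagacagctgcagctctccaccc
Cox7a2: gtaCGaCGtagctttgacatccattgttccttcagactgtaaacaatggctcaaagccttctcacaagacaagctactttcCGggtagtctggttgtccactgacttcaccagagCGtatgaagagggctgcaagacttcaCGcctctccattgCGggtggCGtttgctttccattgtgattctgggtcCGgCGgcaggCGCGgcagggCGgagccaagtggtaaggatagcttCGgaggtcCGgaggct
Cox7a1: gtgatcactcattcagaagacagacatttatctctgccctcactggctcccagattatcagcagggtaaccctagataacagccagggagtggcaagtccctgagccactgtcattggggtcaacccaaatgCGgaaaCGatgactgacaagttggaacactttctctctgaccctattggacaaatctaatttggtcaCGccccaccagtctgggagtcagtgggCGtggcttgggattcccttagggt
The highly expressed Cox8a has 11 CpG here and Cox8b 1, while Cox7a2 has 14 and Cox7a1 4. In pairs not printed, whose restricted genes were also too low for any test, Cox6b1 has 14 and Cox6b2 8, but Cox7b has 5 and Cox7b2 9. The restricted gene thus does not have the fewer CpG in every pair. Over the 67 members with a promoter in the table the median was 14 CpG, against 6 over 27025 genes, and the median GC content was 56.0% against 52.0%. Factors known to drive respiratory genes in mammals include the ETS factor GABP and NRF1. The ETS core CCGGAAG was present on either strand in 11 of 67 member promoters (16.4%), against 7.05% of all. The letters TGCGCA, part of the NRF1 site, were present in 13 (19.4%), against 6.66%. The GC box GGGCGG was found in 35.8% against 32.9%, TATAAA in 8.96% against 12.97%, and AAGATGG, the core of YY1 sites, in 0 of 67 against 4.53%. None of the 4 printed promoters holds the ETS core or TGCGCA. A match is a description of letters and not a site. The 27025 genes were not chosen by expression or CpG content, and no set matched to the members in either was compared. Whether these shares are particular to the members was therefore not tested.

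Most members varied little between libraries. The median SD of log2 CPM over the 39 libraries was 0.58 for the 81 tested members and 1.15 for all 15579 tested genes; the members also have higher counts, which lowers counting error. The steadiest were Ndufa10 (SD 0.26), Atp5h (0.32), Cox5b (0.33), Sdha (0.33) and Ndufa13 (0.34), which serve complexes I, II, IV and V. The most variable were Cox4i2 (1.77), Ndufa4l2 (1.48), Cox6a2 (1.32), Ndufb6 (1.27) and Ndufb11 (1.19). The first 3 of these are restricted genes with medians under 1 CPM, while Ndufb6 and Ndufb11 are ordinary complex I subunits that were lowest in library 1574.

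The level of each complex was then compared over the groups, as the mean log2 CPM of its tested members in each library. Complex I averaged 5.06 ± 0.10 in escalating, 5.09 ± 0.26 in nonescalating and 5.16 ± 0.21 in saline libraries of 1 month (SD, n = 4, 10 and 5). At 24 hours it averaged 5.04 ± 0.20 in escalating, 4.94 ± 0.38 in nonescalating and 4.71 ± 0.68 in saline libraries (SD, n = 5, 9 and 6). The largest step between these group means, at 24 hours, was smaller than the SD of the saline group. Complex II averaged 6.58 ± 0.14, 6.72 ± 0.37 and 6.73 ± 0.11 in escalating, nonescalating and saline libraries of 1 month, and 6.73 ± 0.40, 6.72 ± 0.10 and 6.07 ± 0.92 in those of 24 hours. Complex III averaged 5.53 ± 0.13, 5.63 ± 0.13 and 5.67 ± 0.17 at 1 month, and 5.56 ± 0.25, 5.62 ± 0.17 and 5.44 ± 0.57 at 24 hours, in the same order of groups. The spread of complex II was widest in saline libraries of 24 hours, where 1573 and 1574 are. Complex IV averaged 5.08 ± 0.33, 5.16 ± 0.25 and 5.26 ± 0.16 in escalating, nonescalating and saline libraries of 1 month, and 5.12 ± 0.06, 5.14 ± 0.15 and 5.17 ± 0.57 in those of 24 hours. Complex V averaged 5.76 ± 0.11, 5.84 ± 0.19 and 5.88 ± 0.16 at 1 month, and 5.90 ± 0.30, 5.76 ± 0.19 and 5.43 ± 0.66 at 24 hours, in the same order. In each complex the ranges of the 3 groups overlapped at both times. Without libraries 1573, 1574 and 1582, the mean over all members was 5.37 ± 0.19 in escalating, 5.39 ± 0.09 in nonescalating and 5.44 ± 0.38 in saline libraries of 24 hours (SD, n = 5, 8 and 4).

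Single subunits gave the same picture of overlapping levels. In the order escalating, nonescalating and saline, the group medians of Atp5b were 2166, 2160.2 and 2259.5 CPM at 1 month and 1899, 1937 and 1740.0 CPM at 24 hours, and those of Atp5a1 were 683, 729.6 and 754 CPM at 1 month and 723, 756 and 658 CPM at 24 hours. The medians of Atp5g3 were 88.2, 99.7 and 91.8 CPM at 1 month and 94.5, 91.1 and 86.6 CPM at 24 hours. The 3 groups of each time overlapped for these ATP synthase genes. For the core complex I gene Ndufs1 the medians were 100.5, 96.7 and 90.1 CPM at 1 month and 95.1, 96.8 and 70.3 CPM at 24 hours. For Sdha they were 459, 453 and 468 CPM at 1 month and 427, 464 and 512 CPM at 24 hours. For Cyc1 they were 44.3, 46.6 and 48.5 CPM at 1 month and 46.3, 57.3 and 42.9 CPM at 24 hours. The ranges of the 3 groups overlapped for these genes too, and the lowest Ndufs1 median was that of saline libraries of 24 hours. Cox4i1, the subunit that binds regulatory ATP in complex IV, had medians of 123, 132 and 137 CPM at 1 month and 128, 132 and 124 CPM at 24 hours. Cox5a, a matrix-side subunit, had 57.5, 54.1 and 60.6 CPM at 1 month and 50.8, 49.4 and 49.9 CPM at 24 hours. Cox6a1 had 101, 122 and 117 CPM at 1 month and 110.3, 116 and 137 CPM at 24 hours. These complex IV genes overlapped between groups at both times.

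**Figure D4:**
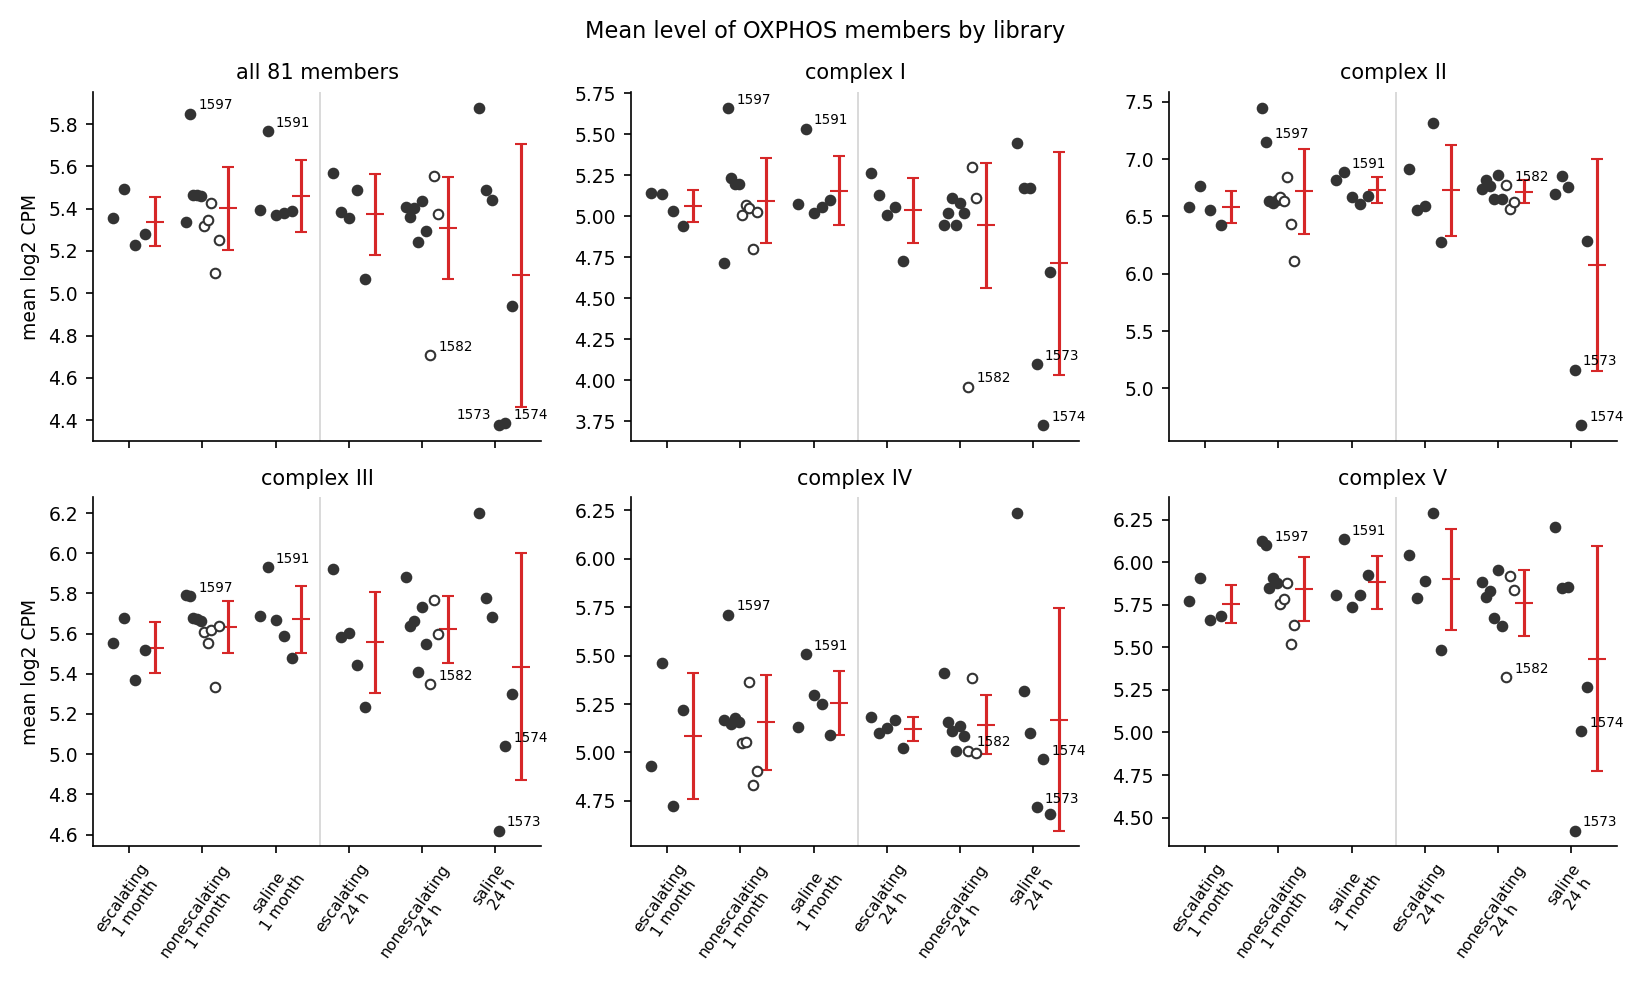
Points are libraries, the y axis is the mean log2 CPM of the tested members of a complex, red marks are group means with SD, and open circles are nonescalating libraries of the second replicate numbering. Groups overlap in each panel, and libraries 1573, 1574 and 1582 lie lowest in the panel of all 81 members.

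In gene-by-gene tests, 0 of 80 members passed an adjusted p of 0.05 for escalating against saline at 1 month (edgeR, with 0% of all 14181 genes called, and 0 of 80 with DESeq2). At an unadjusted p of 0.05 it was 1 of 80, against 4.36% of all genes. The log2 fold changes of most members were negative: 18 of 80 were positive, with a median of -0.18, against 6951 of 14181 and a median of -0.01 for all genes tested. The complex medians were -0.18 for I, -0.17 for II, -0.17 for III, -0.26 for IV and -0.18 for V. All 4 genes of complex II were negative, as were 14 of 17 in complex V. Cox6b1, a small subunit of complex IV on the intermembrane side, had the smallest p. It had 39.9, 62.9, 42.6 and 44.3 CPM in escalating libraries, against 93.3, 86.9, 46.5, 56.1 and 67.9 CPM in saline libraries. The groups overlapped, with the 3 highest values in saline libraries (log2 fold change -0.55 ± 0.25 SE, edgeR adjusted p = 1.000). Ndufa7, an accessory complex I subunit, had 21.6, 25.6, 12.5 and 23.3 CPM in escalating libraries, against 51.7, 45.6, 20.1, 25.3 and 21.9 CPM in saline libraries. Its groups overlapped, and 2 saline libraries stood above all others (log2 fold change -0.65 ± 0.33 SE, edgeR adjusted p = 1.000). Uqcr10 of complex III had 43.1, 44.1, 37.9 and 39.8 CPM in escalating libraries, against 54.2, 63.6, 60.0, 55.3 and 46.6 CPM in saline libraries. The groups of Uqcr10 did not overlap, and the fit did not call it (log2 fold change -0.43 ± 0.27 SE, edgeR adjusted p = 1.000). Uqcr10 was picked by its p, and the share of members or of all genes without overlap was not counted. Sdhb, the iron-sulfur subunit of complex II, had 56.0, 44.2, 51.1 and 54.0 CPM in escalating libraries, against 40.5, 98.7, 69.3, 56.2 and 52.6 CPM in saline libraries (log2 fold change -0.29 ± 0.25 SE, edgeR adjusted p = 1.000), which fell within overlapping ranges. Atp5k, the e subunit of the ATP synthase, had 24.9, 27.6, 23.4 and 22.0 CPM, against 45.5, 91.9, 22.8, 28.3 and 28.0 CPM in saline libraries. Its wide saline range comes from 1 library at 91.9 CPM (log2 fold change -0.81 ± 0.50 SE, edgeR adjusted p = 1.000).

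These counts varied with the libraries used. Saline library 1591 had the highest mean over all members of its group, 5.77 log2 CPM, while the other 4 lay between 5.37 and 5.39. Without it, 30 of the 80 members had positive log2 fold changes and the median was -0.08. Without it the medians were -0.0051 for complex I, -0.09 for complex II and -0.010 for complex V. Over all fits that left out 1 library, the median ran from -0.25 to -0.11 for complex III and from -0.34 to -0.16 for complex IV. The log2 fold changes of Atp5k, Sdhb and Uqcr10 were -0.34, -0.08 and -0.38 without 1591. That of Ndufa7 was -0.43 without saline library 1590. All 4 escalating libraries of 1 month were shallower (5.75 to 6.96 M counts) than all 5 saline libraries (10.5 to 33.9 M counts), so depth and group cannot be told apart in this comparison. Endothelial markers had positive log2 fold changes in 7 of 7 genes, with a median of 1.02, and their summed level was 184 to 813 CPM in escalating libraries, against 50.02 to 349 CPM in saline libraries. Mural cell markers were positive in 8 of 10, with 77.1 to 271 CPM in escalating libraries and 26.6 to 167 CPM in saline libraries. D1 neuron markers were positive in 3 of 7. Their part in the members' values was not tested.

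For nonescalating against saline at 1 month, 0 of 80 members passed the adjusted threshold (edgeR, 0% of 14181 genes, and 0 of 80 with DESeq2), and 2 of 80 had an unadjusted p under 0.05, against 4.53% of all genes. Here 34 of 80 log2 fold changes were positive, with a median of -0.05, against 0.02 for all genes. Ndufa7 had between 13.4 and 29.2 CPM (median 23.2) in nonescalating libraries, against the saline values above, with an unadjusted p of 0.0489 and an adjusted p of 0.986 in edgeR. In complexes II to IV the smallest p belonged to Sdhd, a membrane anchor of complex II (log2 fold change 0.27 ± 0.22 SE, edgeR adjusted p = 0.986), to Uqcrb of complex III (log2 fold change -0.25 ± 0.24 SE, edgeR adjusted p = 0.986) and to Cox6b1 (log2 fold change -0.32 ± 0.20 SE, edgeR adjusted p = 0.986). In complex V it was Atp5g1 (log2 fold change -0.41 ± 0.23 SE, edgeR adjusted p = 0.986), whose highest saline value was 167 CPM in library 1590: without that library the log2 fold change was 0.02, and those of Uqcrb and Cox6b1 were -0.11 and -0.19.

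The nonescalating libraries carry replicate numbers that restart, which gives 2 series. In the first series (5 libraries, 10.5 to 15.2 M counts) the members' mean was 5.52 ± 0.19 log2 CPM, and in the second (5 libraries, 4.97 to 8.92 M counts) it was 5.29 ± 0.12 (SD). Set against saline, the first series gave 52 of 79 positive log2 fold changes with a median of 0.10, and the second 16 of 80 with a median of -0.21. The shallower nonescalating series thus gave mostly negative values, as did the escalating group, whose libraries have like depth; the part of depth was not tested. Library 1597 of the first series had the highest members' mean of its group, 5.85. Without it 22 of 80 were positive, and without saline library 1591 it was 51 of 80. Endothelial markers were positive in 7 of 7 for nonescalating against saline, with a median of 0.76, and their part was not tested.

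For escalating against nonescalating at 1 month, 0 of 80 members were called (edgeR, 0% of 14181 genes, and 0 of 80 with DESeq2), and 2 of 80 had an unadjusted p under 0.05, against 2.31% of all genes. Of 80 log2 fold changes 23 were positive, with a median of -0.12, against -0.04 for all genes. Ndufc2, an accessory subunit of complex I, had 36.2, 48.3, 33.5 and 34.3 CPM in escalating libraries, against values between 41.7 and 83.6 CPM (median 48.4) in nonescalating libraries. 3 of the 4 escalating libraries lay below the nonescalating range (log2 fold change -0.50 ± 0.21 SE, edgeR adjusted p = 0.999). The Rieske protein gene Uqcrfs1 had 31.2, 28.1, 29.2 and 30.7 CPM in escalating libraries, against values between 29.6 and 62.6 CPM (median 39.4) in nonescalating libraries. The 4 escalating values lay close together around the low end of the nonescalating range, with 28.1 and 29.2 CPM below it (log2 fold change -0.48 ± 0.22 SE, edgeR adjusted p = 0.999). The others with the smallest p in their complex were Sdhb (log2 fold change -0.29 ± 0.22 SE, edgeR adjusted p = 0.999), Cox7b (log2 fold change -0.41 ± 0.26 SE, edgeR adjusted p = 0.999) and Atp5k (log2 fold change -0.74 ± 0.45 SE, edgeR adjusted p = 0.999). Against the first nonescalating series alone 17 of 79 members were positive (median -0.22), and against the second, of similar depth to the escalating libraries, 48 of 80 were (median 0.06). Atp5k then had a log2 fold change of 0.05. Without nonescalating library 1596 the log2 fold changes were -0.46 for Atp5k and -0.18 for Sdhb, and without 1597 it was -0.26 for Cox7b. Without escalating library 1607, 11 of 80 were positive.

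**Figure D5:**
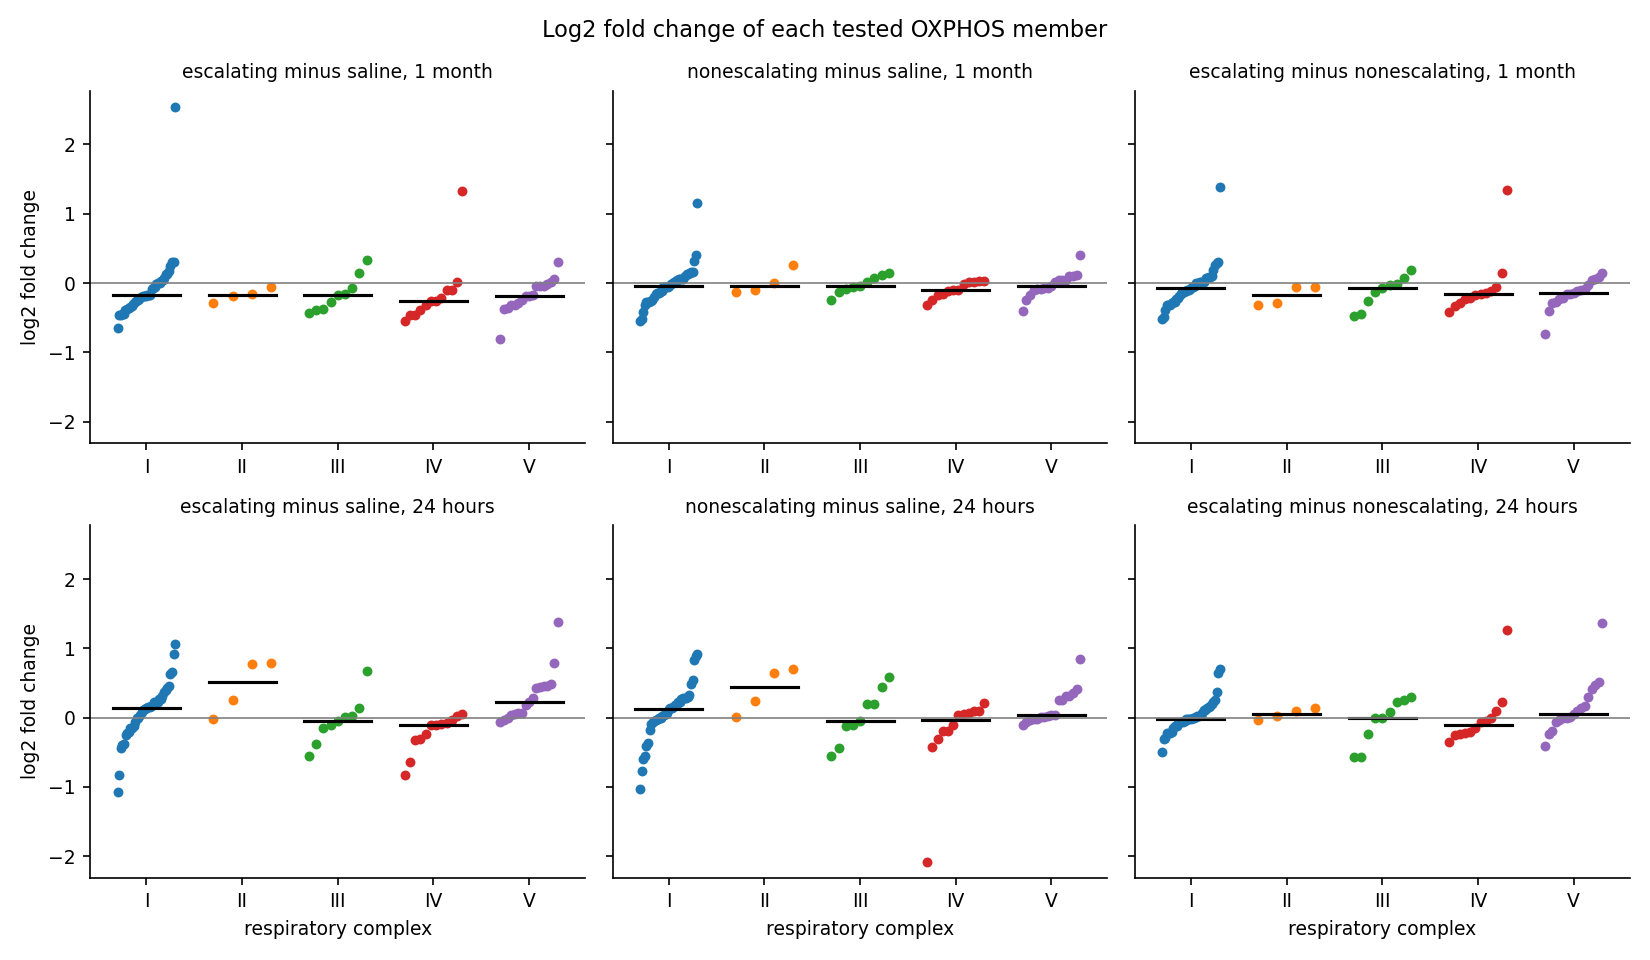
Each point is a tested member, grouped by complex (x axis), and the y axis is its edgeR log2 fold change; bars are medians. In the panel of escalating against saline at 1 month the 5 medians lie between -0.26 and -0.17, while in that of escalating against saline at 24 hours they lie between -0.11 and 0.52.

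At 24 hours, escalating against saline, 0 of 79 members were called (edgeR, 0% of 14137 genes, and 0 of 79 with DESeq2), and 4 of 79 had an unadjusted p under 0.05, against 5.16% of all genes. Of 79 log2 fold changes 46 were positive with a median of 0.05, against -0.06 for all genes. Complex II had the highest median, 0.52, and complex IV the lowest, -0.11, with 2 of 12 positive. Without libraries 1573, 1574 and 1582 the medians were 0.10 for complex II and -0.45 for complex IV, and without escalating library 1588 that of complex II was 0.23. For complexes I, III and V they were -0.11, -0.17 and -0.07 without the 3 libraries. The core complex I subunit Ndufv1 had 59.3, 83.5, 111, 182 and 98.9 CPM in escalating libraries, against values between 20.7 and 89.4 CPM (median 38.4) in saline libraries. The ranges overlapped, and the 4 lowest values are of saline libraries, 1573 and 1574 lowest of all (log2 fold change 1.06 ± 0.41 SE, edgeR adjusted p = 0.953). Cox8a, the most abundant complex IV gene per kilobase, had 141, 112, 147, 163 and 102 CPM in escalating libraries, against values between 113 and 268 CPM (median 212) in saline libraries. All but 1 saline library lay above all escalating libraries (log2 fold change -0.65 ± 0.24 SE, edgeR adjusted p = 0.953). Without the 3 libraries, Ndufv1 had a log2 fold change of 0.76 and Cox8a of -0.69, while positive members numbered 24 of 79 with a median of -0.12. Saline library 1570, which had the highest mean over all members (5.88 log2 CPM), moved the counts the other way. Leaving out 1570 alone gave 60 of 79 positive, with a median of 0.29 for the members and 0.09 for complex IV. Sdhd (log2 fold change 0.79 ± 0.41 SE, edgeR adjusted p = 0.956) rested on escalating library 1588 at 171 CPM; without it the value was 0.22, and without the 3 libraries 0.62. Atp5s, a coupling factor of the ATP synthase, had a log2 fold change of 0.78 ± 0.52 SE, edgeR adjusted p = 0.978, or 0.31 without 1588 and 0.96 without the 3 libraries. Uqcrc1, a complex III core protein, had a log2 fold change of -0.55 ± 0.33 SE, edgeR adjusted p = 0.956, or -0.06 without saline library 1574, which held 304 CPM, and -0.21 without the 3 libraries. Striatal interneuron markers summed to 13.4 to 38.5 CPM in escalating libraries, against 43.5 to 343 CPM in saline libraries, with no overlap. Oligodendrocyte markers summed to 111 to 235 CPM in escalating and 93.5 to 1610 CPM in saline libraries, and endothelial markers to 219.6 to 2174 CPM and 207 to 2284 CPM. Their part in the members' values was not tested.

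For nonescalating against saline at 24 hours, 0 of 79 members were called (edgeR, 0% of 14137 genes, and 0 of 79 with DESeq2), and 4 of 79 had an unadjusted p under 0.05, against 9.97% of all genes. Positive log2 fold changes numbered 50 of 79, with a median of 0.05, against -0.03 for all genes. Without libraries 1573, 1574 and 1582 they numbered 25 of 79, with a median of -0.10. Without saline library 1570 alone they numbered 65 of 79, with a median of 0.28. The same genes led 4 of the 5 complexes as in the escalating comparison, which shares its saline libraries. Ndufv1 had values between 44.8 and 232 CPM (median 88.3) in nonescalating libraries (log2 fold change 0.89 ± 0.37 SE, edgeR adjusted p = 0.399), with its highest value in 1582. Without the 3 libraries its log2 fold change was 0.28. Cox8a had values between 122 and 199.9 CPM (median 158) in nonescalating libraries (log2 fold change -0.42 ± 0.20 SE, edgeR adjusted p = 0.493), or -0.53 without the 3 libraries. For both genes the saline values are those given above, and the ranges overlapped. Sdhd had a log2 fold change of 0.70 ± 0.37 SE, edgeR adjusted p = 0.532, and Uqcrc1 a log2 fold change of -0.55 ± 0.29 SE, edgeR adjusted p = 0.529, or -0.06 without saline library 1574. Without the 3 libraries these were 0.31 for Sdhd and -0.17 for Uqcrc1. Atp5sl, whose product is now known as the complex I assembly factor Dmac2 and not as an ATP synthase subunit, had a log2 fold change of 0.85 ± 0.43 SE, edgeR adjusted p = 0.514, or 0.41 without the 3 libraries. Sums of markers of other cells overlapped between these groups. Endothelial markers summed to 79.4 to 548 CPM (median 334) in nonescalating libraries and 207 to 2284 CPM (median 438) in saline libraries. Oligodendrocyte markers summed to 124 to 524 CPM (median 191) and 93.5 to 1610 CPM (median 161), in the same order. For both lists the highest saline sums were in 1573 and 1574. The part of these markers in the members' values was not tested.

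For escalating against nonescalating at 24 hours, 0 of 79 members were called (edgeR, 0% of 14137 genes, and 0 of 79 with DESeq2), and 0 of 79 had an unadjusted p under 0.05, against 3.15% of all genes. Of the 79 log2 fold changes 37 were positive, with a median of -0.00, against -0.03 for all genes. The smallest p of each complex belonged to Ndufc1 (log2 fold change -0.50 ± 0.34 SE, edgeR adjusted p = 1.000), Sdhb (log2 fold change 0.13 ± 0.42 SE, edgeR adjusted p = 1.000), Cyc1 (log2 fold change -0.57 ± 0.37 SE, edgeR adjusted p = 1.000), Cox8a (log2 fold change -0.23 ± 0.22 SE, edgeR adjusted p = 1.000) and Atp5l (log2 fold change 1.36 ± 0.86 SE, edgeR adjusted p = 1.000). Without escalating library 1588 the values were -0.16 for Sdhb, -0.37 for Cyc1 and 0.65 for Atp5l. That of Ndufc1 was -0.22 without nonescalating library 1582, and that of Cox8a -0.15 without escalating library 1589. Without libraries 1573, 1574 and 1582 the Sdhb value was 0.33. Sdhb had 64.9, 62.2, 53.0, 125 and 54.5 CPM in escalating libraries, against values between 44.6 and 128 CPM (median 59.9) in nonescalating libraries. Here 7 of 7 endothelial and 10 of 10 mural cell markers had positive log2 fold changes, with medians of 1.43 and 1.18, and their part in the members' values was not tested. Without those 3 libraries, 37 of 79 members were positive, with a median of -0.02.

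The later time was also set against the earlier within each group; the index numbers in the labels restart at the later time, so time and sequencing pool cannot be told apart. In saline libraries 0 of 81 members were called (edgeR, 0% of 15579 genes), while DESeq2 called 1, and 3 of 81 had an unadjusted p under 0.05, against 13% of all genes. Here 64 of 81 log2 fold changes were positive, with a median of 0.18, against -0.06 for all genes, and 16 of 17 were positive in complex V. Without libraries 1573, 1574 and 1582 it was 39 of 80, with a median of -0.02, and without the 24-hour library 1570 alone 71 of 81, with a median of 0.33. The member with the smallest p was Ndufab1, the acyl carrier protein. It had 32.7, 19.9, 21.8, 32.4 and 32.2 CPM in saline libraries of 1 month, against values between 6.89 and 29.5 CPM (median 10.3) in those of 24 hours. All but 1 of the 24-hour libraries lay below all 1-month libraries (log2 fold change 1.11 ± 0.33 SE, edgeR adjusted p = 0.144), and it is the member that DESeq2 called, with a log2 fold change of 1.03 and an adjusted p of 0.0106. Without the 24-hour library 1572, the one at 29.5 CPM, edgeR gave 1.56 with an adjusted p of 0.0254. Without the 3 libraries it gave 0.88 with an adjusted p of 0.553. The others were Sdhb (log2 fold change 0.60 ± 0.37 SE, edgeR adjusted p = 0.500), Uqcrc1 (log2 fold change -0.62 ± 0.30 SE, edgeR adjusted p = 0.360), Cox6a2 (log2 fold change -2.82 ± 1.78 SE, edgeR adjusted p = 0.522, with 10.1 CPM in library 1573 and under 1 CPM in the other saline libraries) and Atp5f1, the b subunit (log2 fold change 0.46 ± 0.27 SE, edgeR adjusted p = 0.465). For Uqcrc1 it was -0.13 and for Sdhb 0.36 without 1574, and for Atp5f1 it was 0.25 without 1573. Without the 3 libraries these were -0.30, 0.16 and 0.24, and Cox6a2 was too low for a test. All 7 endothelial markers had negative log2 fold changes in this comparison, with a median of -2.24; their part in the members' values was not tested.

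In nonescalating libraries, the later time against the earlier, 0 of 81 were called (edgeR, 0% of 15579 genes, and 0 with DESeq2), with 0 of 81 at an unadjusted p under 0.05, against 4.64% of all genes. The members' median log2 fold change was 0.07, with 48 of 81 positive. In the first series alone it was 0.19, with 74 of 80 positive, and in the second alone -0.03, with 40 of 81. Without libraries 1573, 1574 and 1582 it was 0.06, with 54 of 80. The smallest p of each complex belonged to Ndufb6 (log2 fold change -0.67 ± 0.42 SE, edgeR adjusted p = 1.000), Sdhc (log2 fold change 0.28 ± 0.32 SE, edgeR adjusted p = 1.000), Cyc1 (log2 fold change -0.40 ± 0.24 SE, edgeR adjusted p = 1.000), Cox8a (log2 fold change 0.28 ± 0.18 SE, edgeR adjusted p = 1.000) and Atp5j, coupling factor 6 (log2 fold change -0.25 ± 0.21 SE, edgeR adjusted p = 1.000). Without library 1582 both Ndufb6 and Atp5j were at -0.15, and without 1596 Sdhc was at 0.15. In escalating libraries 0 of 81 were called (edgeR, 0%, and 0 with DESeq2), with 0 of 81 at an unadjusted p under 0.05, against 1.72% of all genes, and the median was -0.07, with 34 of 81 positive (-0.07 and 32 of 80 in the fit without the 3 libraries). The smallest p of each complex belonged to Ndufa4l2 (log2 fold change 2.22 ± 1.63 SE, edgeR adjusted p = 1.00, from libraries at 0 to 7.76 CPM), Sdhd (log2 fold change -0.64 ± 0.39 SE, edgeR adjusted p = 1.00), Uqcr10 (log2 fold change -0.49 ± 0.33 SE, edgeR adjusted p = 1.00), Cox8a (log2 fold change 0.35 ± 0.26 SE, edgeR adjusted p = 1.00) and Atp5l (log2 fold change -1.46 ± 0.93 SE, edgeR adjusted p = 1.00). Without the 24-hour library 1588 the values were -0.08 for Sdhd and -0.74 for Atp5l. Without the 1-month libraries 1608 and 1607, each left out alone, they were 0.55 for Ndufa4l2 and 0.07 for Cox8a.

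The change of a cocaine contrast between times was tested as a difference of differences. For nonescalating against saline 0 of 81 members were called (edgeR, 0%, and 0 with DESeq2) and 1 of 81, Ndufab1, had an unadjusted p under 0.05, against 9.80% of all genes (log2 fold change -0.87 ± 0.41 SE, edgeR adjusted p = 0.475). Of the 81, 30 were positive with a median of -0.11, against 0.05 for all genes, or 44 of 80 with a median of 0.04 without libraries 1573, 1574 and 1582. Without saline library 1570 alone 16 of 81 were positive, with a median of -0.32. In the other complexes the smallest p belonged to Sdhb (log2 fold change -0.65 ± 0.46 SE, edgeR adjusted p = 0.690), Uqcrc1 (log2 fold change 0.68 ± 0.37 SE, edgeR adjusted p = 0.558), Cox5b (log2 fold change -0.34 ± 0.29 SE, edgeR adjusted p = 0.761) and Atp5f1 (log2 fold change -0.59 ± 0.34 SE, edgeR adjusted p = 0.587). Those of Sdhb and Uqcrc1 were -0.40 and 0.19 without 1574, and -0.02 and 0.31 without the 3 libraries. Those of Atp5f1 and Cox5b were -0.38 and -0.21 without 1573, and -0.33 and -0.09 without the 3 libraries. For escalating against saline 0 of 81 were called (edgeR, 0%, and 0 with DESeq2), with 0 of 81 at an unadjusted p under 0.05, against 4.94% of all genes. There 17 of 81 were positive, with a median of -0.27, against 0.03 for all genes. Complex II had the lowest median, -0.65, then complex V with -0.44, complex I with -0.28, complex III with -0.19 and complex IV with -0.04. The smallest p of each complex belonged to Ndufv1 (log2 fold change -0.93 ± 0.52 SE, edgeR adjusted p = 0.999), Sdhb (log2 fold change -1.09 ± 0.55 SE, edgeR adjusted p = 0.998), Uqcrc1 (log2 fold change 0.87 ± 0.44 SE, edgeR adjusted p = 0.998), Cox8a (log2 fold change 0.38 ± 0.35 SE, edgeR adjusted p = 0.999) and Atp5k (log2 fold change -1.25 ± 0.71 SE, edgeR adjusted p = 0.999). Without saline libraries 1574 and 1591, each left out alone, the values were 0.38 for Uqcrc1 and -0.78 for Atp5k, and without escalating library 1607 it was 0.12 for Cox8a. In the fit without libraries 1573, 1574 and 1582, 34 of 80 members were positive, with a median of -0.03. The complex medians were then -0.34 for II, -0.09 for V, -0.03 for I and 0.11 for both III and IV. The values of Uqcrc1 and Sdhb were 0.53 and -0.66. Without saline library 1570 alone the members' median was -0.47.

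Other genes of mitochondrial energy supply were read beside the members, and none passed the adjusted threshold in the comparisons of escalating against saline (edgeR). Unadjusted p was under 0.05 for 4 of 177 genes of the 6 lists at 1 month, against 4.36% of all genes, and for 5 of 177 at 24 hours, against 5.16%. DESeq2 called 0 and 8 of all genes. For escalating against saline at 1 month, log2 fold changes were positive for assembly factors of the complexes in 18 of 42 (median -0.10), for the citric acid cycle in 7 of 17 (median -0.01), for mitochondrial ribosomal proteins in 32 of 75 (median -0.09) and for mitochondrial carriers and cytochrome c in 8 of 14 (median 0.10). Glycolysis genes gave 8 of 16 (median -0.01), and regulators of mitochondrial biogenesis 8 of 13 (median 0.03). These lie nearer to 0 than the -0.18 of the members, a difference that was not tested. The members' median was -0.08 without saline library 1591, and the lists were not refitted without that library. In the citric acid cycle list the smallest p belonged to Idh3g, a subunit of isocitrate dehydrogenase (log2 fold change -0.45 ± 0.17 SE, edgeR adjusted p = 1.000), and in the carrier list to Vdac1, the outer membrane channel (log2 fold change -0.42 ± 0.20 SE, edgeR adjusted p = 1.000).

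At 24 hours, escalating against saline, assembly factors gave 23 of 42 (median 0.04), the citric acid cycle 11 of 17 (median 0.06), mitochondrial ribosomal proteins 43 of 75 (median 0.06) and biogenesis regulators 5 of 13 (median -0.39). The smallest p among regulators belonged to Gabpb1, a subunit of the ETS factor named above (log2 fold change -1.0 ± 0.44 SE, edgeR adjusted p = 0.955). In the glycolysis list it belonged to Aldoc, an aldolase that is also an astrocyte marker (log2 fold change -2.30 ± 0.65 SE, edgeR adjusted p = 0.953). Astrocyte markers summed to 355 to 711 CPM in escalating libraries and 520 to 3664 CPM in saline libraries, highest in 1573. These lists were also refitted without libraries 1573, 1574 and 1582, an alternative chosen after seeing the data. Aldoc then had a log2 fold change of -0.36 and Gabpb1 of -0.65, with edgeR adjusted p of 0.824 and 0.593. Positive values numbered 18 of 42 for assembly factors (median -0.08), 8 of 17 for the citric acid cycle (median -0.04), 39 of 75 for mitochondrial ribosomal proteins (median 0.03), 5 of 16 for glycolysis (median -0.14) and 8 of 13 for regulators (median 0.14). The median of the regulators thus changed sign without these libraries.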

How the data were processed

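Ribosome-bound RNA was pulled down from the accumbens with anti-EGFP antibodies on magnetic beads, per the labels' protocols, and no input RNA was used here. The deposited values are raw counts per gene symbol, which the authors made with STAR 2.0.0e and HTSeq on mm10, per the submitters' processing notes; neither the annotation nor a strand setting is stated in the sources used here. Of uniquely placed reads, 18.65% to 70.3% hit no annotated gene and 1.76% to 4.93% were ambiguous; these summary lines were left out, as was a row of at most 1 count that names no gene.

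Library 1595 was left out of the tests. Genes were filtered with edgeR's filterByExpr (minimum count 10), scaled by TMM and tested with the quasi-likelihood test of edgeR 4.0.16 (limma 3.58.1, R 4.3.3), with p-values adjusted by Benjamini-Hochberg over all tested genes. One fit held the 24-hour libraries, another those of 1 month, and a fit of all 39 gave the comparisons of times. DESeq2 1.42.0 and the other settings were alternatives. Log2 CPM used a prior count of 2. Lengths come from GENCODE vM21 (GRCm38), copies from BLAST+ 2.17.0 and promoters from RefSeq (GRCm38.p6), which held 67 of 86 members. The test was also run on simulated counts of the 24-hour libraries, whose spread was set without libraries 1573, 1574 and 1582. That run therefore does not show what the test can find in fits that hold these libraries.

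The named genes are a fixed set of well-known subunits, the member with the smallest p in each complex and comparison, the extremes of level and of spread, the untested members and the gene with the smallest p of a pathway list; 1 result of this rule is not reported here. Members and lists were chosen with earlier results of these data known.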

Additional observations from a re-analysis of the deposited data

Results flagged for a closer look

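Of 36 sets of group values (the mean log2 CPM of all members or of a complex in a group), 6 held a library set far from the others by Dixon's gap test at the 95% level. Chance sets apart about 5% of such groups where values are normal and sets independent. The 36 sets share libraries and members, so the 6 are not separate results and 5% is no exact yardstick for them. The test looks for 1 library apart, and the low 1573 and 1574 lie together at 4.38 and 4.39 for all members. For all members, library 1597 had 5.85 among nonescalating libraries of 1 month, while the others lay between 5.10 and 5.47. Library 1591 had 5.77 among saline libraries of 1 month, against 5.37 to 5.39 in the others. Library 1582 had 4.71 among nonescalating libraries of 24 hours, against 5.24 to 5.56 in the others. For complex I, 1591 had 5.54, against 5.02 to 5.10 in the other saline libraries of 1 month, and 1582 had 3.96, against 4.95 to 5.30 in the other nonescalating libraries of 24 hours. For complex III, 1604 had 5.33 among nonescalating libraries of 1 month, against 5.55 to 5.79 in the others.

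Library 1595, which no comparison used, held 45 counts on 23 members among 5168 counts, a share of 0.871% with an exact (Clopper-Pearson) 95% interval of 0.636% to 1.16% for counting error only. The other 39 libraries gave 0.346% to 0.919%, with a median of 0.773%.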

How the results depend on the processing

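With edgeR, 0 members were called in all 11 comparisons under each alternative except the saline comparison of times without library 1572, where Ndufab1 was called; leaving out 1 library gave 0 to 1 members and 0 to 99 of all genes called there (31 without 1570, 60 without 1571, 99 without 1572). DESeq2 called 1 member there (Ndufab1) and 583 genes, and elsewhere no member. Its calls over all genes were 164 for nonescalating against saline, 8 for escalating against saline and 3 for escalating against nonescalating at 24 hours, 8 for nonescalating against saline at 1 month, 3 and 6 for the times in nonescalating and escalating libraries, and 109 and 10 for the changes of the nonescalating and escalating contrasts. One fit of all 39 libraries called 129 genes for nonescalating against saline at 24 hours. RLE scaling moved the all-gene median of the saline comparison of times to -0.16, against -0.06 with TMM.

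Signs turned for single members. With the first nonescalating series alone, log2 fold changes were 0.00051 for Ndufc1 (escalating against nonescalating, 24 hours), 0.028 for Ndufb6 and 0.058 for Atp5j (nonescalating, times) and 0.085 for Cox5b (change of the nonescalating contrast). With the second alone they were -0.18 for Sdhb at 24 hours and 0.055 for Atp5k at 1 month (both escalating against nonescalating). Leaving out 1 library gave -0.16 to 0.32 for Sdhb in that comparison (lowest without 1588) and -0.57 to 0.019 for Atp5g1 in nonescalating against saline at 1 month (highest without 1590). The cause was not tested.

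With the replicate number as a block, 0 members and 0 genes were called in every comparison, with 19 of 80 members positive for escalating against saline at 1 month and 55 of 79 for nonescalating against saline at 24 hours. Of 42 same-number pairs 7 correlated above 0.1 (r between -0.16 and 0.28), so not every pair was above it and the numbers were not taken to pair the libraries. In escalating against saline at 24 hours 3 of 5 were above it (median r 0.14, against -0.03 for other pairs).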
